A study of Mus musculus with 6 samples.

Results

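The genes described here are 9 components of the neuromuscular junction's receptor apparatus: the muscle acetylcholine receptor subunits Chrna1, Chrnb1, Chrnd, Chrng and Chrne, the scaffold Rapsn, and the signalling genes Musk, Lrp4 and Dok7. They were chosen by symbol, as 9 of the 19321 named genes on a mouse microarray, and each is represented by its brightest probe, judged by the mean over 6 arrays in the authors' value table. All 9 had a probe and all 9 entered the tests, which covered 18372 genes. RNA came from hind limb muscle of C57BL/6 mice, from which 3 populations were sorted by flow cytometry and profiled fresh: satellite cells, the stem cells of the muscle fibre; PDGFRa+ mesenchymal progenitors, interstitial cells that can form fibroblasts or adipocytes; and a mixed population of CD31+ or CD45+ cells, which are endothelial or hematopoietic. Each population was taken from aged (24 to 28 months) and from young (8 to 10 weeks) mice, with cells of repeated sorts pooled, giving 1 array for each population and age and no replicate within either.

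At the junction between motor neuron and muscle fibre, the nerve releases agrin, which binds LRP4 on the muscle surface. LRP4 then activates the receptor tyrosine kinase MuSK with the help of the adaptor Dok-7, and the signal leads rapsyn, the product of Rapsn, to cluster acetylcholine receptors under the nerve ending. The receptor is a channel of alpha, beta and delta subunits with a gamma subunit in fetal and denervated muscle and an epsilon subunit in adult muscle. In mature fibres these genes are transcribed mainly by the nuclei under the nerve ending, while myogenic regulators of the MyoD family, which bind E-boxes, activate several of them when myoblasts differentiate. Factors of the Ets family act on some of them through the N-box.

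The stretches before the starts of 4 receptor subunit genes are shown because they bear these 2 kinds of motif, and because Chrna1 and Chrnb1 were high in satellite cells while Chrng and Chrne were not. Each is 250 bases before the RefSeq transcript start in build GRCm38.p6, read 5′ to 3′ on the gene's own strand, with E-boxes (CANNTG) and N-boxes (CCGGAA) in capitals. The windows are chr2:73580339-73580588 on the minus strand for Chrna1, chr11:69795938-69796187 on the minus strand for Chrnb1, chr1:87205561-87205810 on the plus strand for Chrng and chr11:70619195-70619444 on the minus strand for Chrne.
Chrna1: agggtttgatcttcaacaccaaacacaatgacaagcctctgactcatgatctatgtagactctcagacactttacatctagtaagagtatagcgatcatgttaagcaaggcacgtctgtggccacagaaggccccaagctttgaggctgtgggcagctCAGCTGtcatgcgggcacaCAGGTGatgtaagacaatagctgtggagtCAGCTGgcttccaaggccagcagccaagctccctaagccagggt
Chrnb1: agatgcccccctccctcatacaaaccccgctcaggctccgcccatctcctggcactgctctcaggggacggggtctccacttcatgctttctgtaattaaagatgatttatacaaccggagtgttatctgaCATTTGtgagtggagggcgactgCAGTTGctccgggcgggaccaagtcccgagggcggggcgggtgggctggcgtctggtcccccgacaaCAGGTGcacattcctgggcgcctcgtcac
Chrng: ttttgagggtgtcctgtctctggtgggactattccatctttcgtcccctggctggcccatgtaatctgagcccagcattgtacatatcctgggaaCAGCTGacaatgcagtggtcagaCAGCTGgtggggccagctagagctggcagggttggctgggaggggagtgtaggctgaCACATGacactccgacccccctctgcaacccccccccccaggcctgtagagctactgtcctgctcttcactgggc
Chrne: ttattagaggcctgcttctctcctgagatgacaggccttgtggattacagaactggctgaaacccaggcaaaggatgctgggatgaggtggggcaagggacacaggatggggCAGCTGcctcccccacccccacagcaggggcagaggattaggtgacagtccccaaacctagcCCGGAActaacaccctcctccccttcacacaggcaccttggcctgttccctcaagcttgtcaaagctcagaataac

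Chrna1 had 3 E-boxes, of which those beginning 92 and 44 bases before the start read CAGCTG, a form that MyoD is known to bind. The third, at 73 bases, read CAGGTG. Chrnb1 also had 3 E-boxes, at 119, 96 and 29 bases before its start, none of them CAGCTG and the last CAGGTG. Chrng had CAGCTG at 155 and 132 bases and a further E-box at 75 bases, and Chrne had CAGCTG at 138 bases and an N-box at 76 bases. Musk had 3 E-boxes with CAGCTG at 68 bases, and Dok7 had 1 E-box in the first of its 2 windows and 0 in the second. Over 32851 RefSeq windows of 250 bases, searched on both strands, 66.22% held CANNTG, 13% held CAGCTG and 12.03% held CCGGAA, and 1.26% held at least 2 CAGCTG. Each CAGCTG is also counted as a CANNTG. A match describes the letters in the window and is not a binding site. Promoter entries matched 6 of the 9 genes, those of Chrnd, Rapsn and Lrp4 being the exceptions. Chrnd and Chrng are neighbouring genes on chromosome 1.

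Levels below are in the authors' deposited units, linear intensities set to a median of 25 on each array. Between 20757 and 21671 of 23473 probes (88.4% to 92.3%) were above background on an array, and the number of arrays limits the precision. The populations carried markers of their type: Pdgfra was 60.6 in aged and 7.6 in young satellite cells, 4149 in aged and 5700.4 in young PDGFRa+ cells, and 28.4 and 26.8 in aged and young CD31+ or CD45+ cells. Pax7, the transcription factor that defines satellite cells, was 1361.6 and 1055 in aged and young satellite cells, below background on both PDGFRa+ arrays, and 3.7 and 10.6 in aged and young CD31+ or CD45+ cells. Pecam1, which encodes CD31, was 2450.7 and 2464.8 in aged and young CD31+ or CD45+ cells. It was 50.1 and 40.4 in aged and young satellite cells, and 17 and 13.2 in aged and young PDGFRa+ cells. For Ptprc, which encodes CD45, the values in the same order were 414.6 and 251.7, 4.6 and 2.3, and 3.5 and 4.7. The scanner file headers give a slope between gains, by which the arrays were split here into 2 scan sets. It was 0.465 or 0.466 in the first set, young satellite cells and both PDGFRa+ arrays. In the second set, aged satellite cells and both CD31+ or CD45+ arrays, it was 0.477 or 0.478. The labels name no such batch. PDGFRa+ and CD31+ or CD45+ arrays thus lie in different sets. Between them, population and set are separated only through the satellite arrays.

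Satellite cells stood apart from both other populations in 3 of the 9 genes, the receptor subunits Chrna1 and Chrnb1 and the scaffold Rapsn. In limma fits with population and age as terms, a gene was called when its Benjamini-Hochberg adjusted p over the 18372 genes was under 0.05 and the difference was at least 2-fold. By that rule 3 members were called higher and 0 lower in satellite cells than in PDGFRa+ cells, where 3.2% of all genes were called higher and 4.09% lower. Against CD31+ or CD45+ cells the same 3 were called higher and 0 lower, where 5.12% of all genes were called higher and 6.57% lower. Genes called higher against both other populations numbered 392, or 2.13% of those tested. The median difference of the 9 genes was 0.04 on the log2 scale against PDGFRa+ cells and 0.06 against CD31+ or CD45+ cells, beside 0.01 and 0.02 over all genes. In bulk samples, fewer cells of a type and less RNA per cell cannot be told apart. The spread in this fit comes from 2 residual degrees of freedom. It is how far the aged and young arrays of each population depart from the shared age difference, and not a spread between replicates. The p-values measure only this spread between these arrays.

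**Figure D1:**
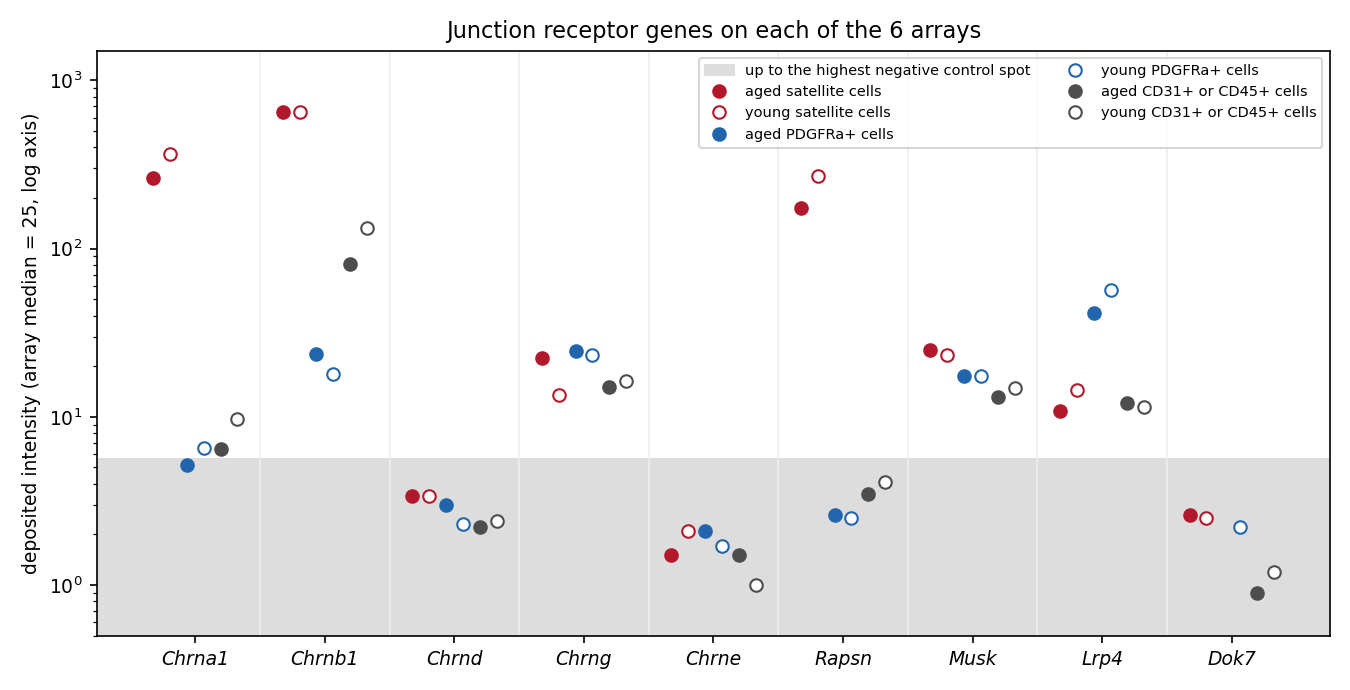
Deposited intensity (log axis, array median 25) of the 9 genes on each of the 6 arrays. Filled points are aged and open points young, and the grey band reaches up to the highest negative control spot of any array, 5.59. Chrna1, Chrnb1 and Rapsn in satellite cells sit far above the other populations, Lrp4 is well above the others in PDGFRa+ cells, and all Chrnd, Chrne and Dok7 points lie in the band.

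Chrna1 encodes the alpha subunit, which carries most of the acetylcholine binding site. Its brightest probe (M200001823) read 262.7 in aged and 364.6 in young satellite cells, against 5.2 in aged and 6.5 in young PDGFRa+ cells, and 6.4 in aged and 9.7 in young CD31+ or CD45+ cells. Both satellite arrays were far above all 4 others, which lay close together, a separation whose share among all genes was not counted. The difference from PDGFRa+ cells was 3.11 ± 0.10 on the log2 scale (SE, limma adjusted p = 0.00408, 2 arrays each), and that from CD31+ or CD45+ cells was 3.05 ± 0.10 (adjusted p = 0.00143). PDGFRa+ cells differed from CD31+ or CD45+ cells by -0.07, with a 95% interval of -0.35 to 0.22. The log2 scale carries an offset of 50 that compresses dim genes, and in deposited units the satellite to PDGFRa+ ratio was 50.5 in aged and 56.1 in young cells. A second Chrna1 probe (M400007027) disagreed: it read 3.2 and 3.5 in aged and young satellite cells, 6 and 8.7 in aged and young PDGFRa+ cells, and 2.7 and 2.6 in aged and young CD31+ or CD45+ cells. With both probes averaged, the difference from PDGFRa+ cells was 1.48 and that from CD31+ or CD45+ cells 1.53, and both were still called.

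Chrnb1, the beta subunit, separated the 3 populations. It read 651.5 in aged and 648.1 in young satellite cells, 23.6 and 18 in aged and young PDGFRa+ cells, and 80.5 and 133 in aged and young CD31+ or CD45+ cells. No population overlapped another, and the order was satellite, then CD31+ or CD45+, then PDGFRa+. The share of all genes that separate without overlap was not counted. Satellite cells exceeded PDGFRa+ cells by 3.65 ± 0.21 (limma adjusted p = 0.00733), the 23rd highest of the 18372 differences in that comparison. The excess over CD31+ or CD45+ cells was 2.35 ± 0.21 (adjusted p = 0.00714). Both calls were lost with the local background of each spot, at 1.39 (adjusted p = 0.277) and 1.08 (adjusted p = 0.314). Between the populations outside the satellite gate, Chrnb1 was lower in PDGFRa+ than in CD31+ or CD45+ cells by the call rule, at -1.30 ± 0.21 (adjusted p = 0.0266). It was the only member of the 9 called there, 0 being higher, where 4.7% of all genes were called higher and 5.4% lower in PDGFRa+ cells. The call between PDGFRa+ and CD31+ or CD45+ cells was lost with the local background (-0.30, adjusted p = 0.855), without either satellite array (adjusted p = 0.0584 each), without aged PDGFRa+ (0.0924) or young PDGFRa+ cells (0.141), and with the scan set as a block (0.334). Without young CD31+ or CD45+ cells the difference was -0.96, under 2-fold. Some muscle lineage genes moved the same way and others did not. Myf5, a myogenic regulator, was 2.5 and 4 in aged and young PDGFRa+ cells. In aged and young CD31+ or CD45+ cells it was 8.6 and 28.9, a difference that was not called (limma adjusted p = 0.124). Myod1, another regulator, was 21.4 and 25.1 in the first and 19.8 and 21.2 in the second. The summed level of 16 myofibre genes was 294 and 537.1 in the first and 1027.4 and 1288.9 in the second. Of the 16, 1 was called lower in PDGFRa+ cells and 0 higher. The sum of 10 satellite cell markers went the other way, at 4500.9 and 5788.9 against 1734.8 and 2491.4. Most of the PDGFRa+ sums was Cd34, at 3973.4 and 5034.8, against 785.9 and 1650.7 in CD31+ or CD45+ cells. Of the 10 markers, 2 were called higher in PDGFRa+ cells, Cd34 and Chodl, and 2 lower, Vcam1 and Des. Their median log2 difference was -0.27, lower in PDGFRa+ cells, beside 0.01 over all genes. The part of these genes in the result was not tested.

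Rapsn (probe M200000478) was 175.3 in aged and 270.7 in young satellite cells. In PDGFRa+ cells it read 2.6 aged and 2.5 young, and in CD31+ or CD45+ cells 3.5 aged and 4.1 young. These 4 values lay near the 96 negative control spots, whose highest reading on an array was 2.50 to 5.59. Satellite cells exceeded PDGFRa+ cells by 2.80 ± 0.15 (limma adjusted p = 0.00664) and CD31+ or CD45+ cells by 2.76 ± 0.15 (adjusted p = 0.00289). PDGFRa+ minus CD31+ or CD45+ cells gave -0.04, with a 95% interval of -0.47 to 0.39.

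**Figure D2:**
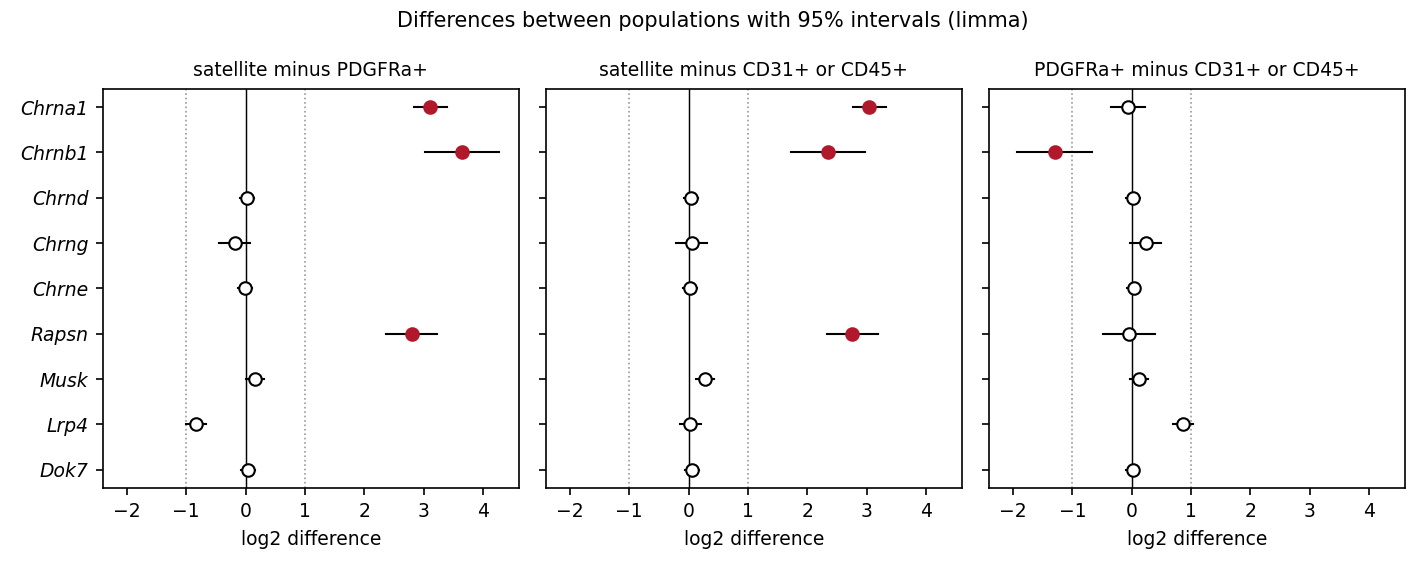
Log2 differences between populations for the 9 genes, with 95% intervals from the limma fit over 6 arrays. Filled points are called, dotted lines mark 2-fold, and the left and middle panels show Chrna1, Chrnb1 and Rapsn alone beyond 2 on the log2 scale.

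Within the first scan set, young satellite cells exceeded aged and young PDGFRa+ cells by 3.29 and 3.28 for Chrna1, by 3.49 and 3.70 for Chrnb1, and by 3.02 and 3.04 for Rapsn. Within the second, aged satellite cells exceeded aged and young CD31+ or CD45+ cells by 2.94 and 2.82 for Chrna1, by 2.66 and 2.14 for Chrnb1, and by 2.54 and 2.51 for Rapsn. All of these differences, on the log2 scale, were beyond 2-fold with the scan set held fixed. The comparison with PDGFRa+ cells depended on having both of its arrays and on the background: leaving out the aged PDGFRa+ array gave adjusted p = 0.0505 to 0.0530 for the 3 genes, and leaving out the young one gave 0.0649 to 0.0685. With the local background the differences were 2.25 for Chrna1 (adjusted p = 0.0637), 1.39 for Chrnb1 (adjusted p = 0.277) and 1.69 for Rapsn (adjusted p = 0.0653), none of them called.

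Genes of the muscle fibre also ran high on the satellite arrays. The summed level of 16 myofibre genes was 6997.2 in aged and 3713.4 in young satellite cells, against 294 and 537.1 in aged and young PDGFRa+ cells, and 1027.4 and 1288.9 in aged and young CD31+ or CD45+ cells. Of these 16, 12 were called higher in satellite than in PDGFRa+ cells and 6 higher than in CD31+ or CD45+ cells, and all 16 had a value on both satellite arrays. Skeletal actin (Acta1) was 1789.4 in aged and 935.1 in young satellite cells, and the calcium channel subunit Cacna1s was 2.1 and 1.6. Satellite cell markers summed to 18172.8 in aged and 24119.5 in young satellite cells, and 9 of the 10 were called higher there in each of the comparisons with the other populations. The part of either list in the levels of Chrna1, Chrnb1 and Rapsn was not tested.

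The regulators of the MyoD family moved in the same comparisons. Of 6 myogenic regulators, 4 were called higher in satellite cells than in PDGFRa+ cells: Myf5 by 5.75, Myod1 by 3.11, Myog by 2.68 and Myf6 by 1.08 on the log2 scale. The same 4 were called higher than in CD31+ or CD45+ cells, by 5.29, 3.21, 2.42 and 1.03, and Mef2c was lower by the call rule, at -2.49. Myog, the regulator that marks differentiating myoblasts, read 212.4 in aged and 189.6 in young satellite cells, against 2.5 and 3.5 in aged and young PDGFRa+ cells, and 11 and 10.3 in aged and young CD31+ or CD45+ cells.

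Genes with the most similar profiles were taken for each member whose log2 values spanned at least 1, as the 3 with the smallest root mean square difference between profiles centred over the 6 arrays. For Chrna1 these were Myod1 (0.11), the Notch target Heyl (0.12) and the neuropeptide gene Gal (0.14). For Rapsn they were Nap1l5 (0.15), Chrna1 itself (0.15) and the pseudokinase gene Trib1 (0.19). For Chrnb1 they were the cyclic AMP phosphodiesterase Pde4b (0.05), fast troponin C (Tnnc2, 0.28) and the homeobox repressor Tgif1 (0.31). Only 3 genes lay nearer to Chrna1 than Rapsn did, while Chrnb1, with its intermediate level in CD31+ or CD45+ cells, was 0.54 from Chrna1 with 56 genes nearer.

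The remaining receptor subunits did not share this pattern. Chrng, the fetal gamma subunit (probe M200001064), read 22.4 in aged and 13.4 in young satellite cells, 24.5 and 23.4 in aged and young PDGFRa+ cells, and 15.1 and 16.4 in aged and young CD31+ or CD45+ cells. All 6 values were above the highest negative control, both PDGFRa+ values were above the other 4, and the satellite values spanned the CD31+ or CD45+ ones. How many of all genes order this way was not counted. Satellite minus PDGFRa+ cells was -0.19 (95% interval -0.45 to 0.08), satellite minus CD31+ or CD45+ cells was 0.05 (-0.21 to 0.32), and PDGFRa+ minus CD31+ or CD45+ cells was 0.24 (-0.02 to 0.50).

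Chrne, the adult epsilon subunit, stayed at the level of the negative controls on every array: it was 1.5 in aged and 2.1 in young satellite cells, 2.1 and 1.7 in aged and young PDGFRa+ cells, and 1.5 and 1 in aged and young CD31+ or CD45+ cells. None of the 6 exceeded the highest negative control of its own array. Chrnd, the delta subunit, read 3.4 on both satellite arrays, 3 and 2.3 in aged and young PDGFRa+ cells, and 2.2 and 2.4 in aged and young CD31+ or CD45+ cells, and 3 of the 6 exceeded that control. Between-population differences for these dim probes were within 0.04 of 0 on the offset scale, which would hide changes at such levels.

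The signalling genes gave 3 different pictures. Musk, the receptor tyrosine kinase (probe M200003419), was 25.1 in aged and 23.2 in young satellite cells, 17.4 and 17.6 in aged and young PDGFRa+ cells, and 13.1 and 14.9 in aged and young CD31+ or CD45+ cells. The populations did not overlap, a separation whose share among all genes was not counted, and satellite cells were highest. The excess over CD31+ or CD45+ cells, 0.28 ± 0.05, passed the p threshold (limma adjusted p = 0.0301) and was 1.21-fold on the offset scale, so it was not called. In deposited units the satellite to CD31+ or CD45+ ratio was 1.92 in aged and 1.56 in young cells. With the local background the log2 excess was 0.13 (adjusted p = 0.483). That over PDGFRa+ cells was 0.16 (95% interval 0.01 to 0.32, adjusted p = 0.121), and PDGFRa+ minus CD31+ or CD45+ cells was 0.12 (-0.04 to 0.27).

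Lrp4, which encodes the agrin receptor, was highest in PDGFRa+ cells. It read 10.9 in aged and 14.5 in young satellite cells, 41.5 and 56.8 in aged and young PDGFRa+ cells, and 12 and 11.5 in aged and young CD31+ or CD45+ cells. Both PDGFRa+ arrays were above the other 4, which overlapped, an order whose share among all genes was not counted. Satellite minus PDGFRa+ cells was -0.83 ± 0.06 (limma adjusted p = 0.00886) and PDGFRa+ minus CD31+ or CD45+ cells 0.86 ± 0.06 (adjusted p = 0.00484). These were 1.78-fold and 1.82-fold on the offset scale, which falls short of the 2-fold rule. In deposited units the satellite to PDGFRa+ ratio was 0.263 in aged and 0.255 in young cells. That of PDGFRa+ to CD31+ or CD45+ cells was 3.46 in aged and 4.94 in young cells. With no background correction, an offset of 10 or the authors' value table, both differences were called, at -1.28, -1.47 and -1.95 for the first, and at 1.33, 1.54 and 2.05 for the second. With the local background of each spot they were -0.34 (adjusted p = 0.402) and 0.41 (adjusted p = 0.314), past neither threshold. Satellite minus CD31+ or CD45+ cells was 0.03 (95% interval -0.14 to 0.20).

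Dok7, the cytoplasmic activator of MuSK, read 2.6 in aged and 2.5 in young satellite cells, was below background in aged and 2.2 in young PDGFRa+ cells, and was 0.9 and 1.2 in aged and young CD31+ or CD45+ cells. No array exceeded the highest negative control. The differences, 0.04 and 0.06 for satellite cells against PDGFRa+ and CD31+ or CD45+ cells, were not called.

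Other genes of the junction were taken as a list of 33, of which 28 were on the array and tested. Dag1, which encodes dystroglycan, a laminin receptor of the fibre membrane, was the only gene of the list called higher in satellite cells, by 2.12 against PDGFRa+ cells (limma adjusted p = 0.00392) and by 2.87 against CD31+ or CD45+ cells (adjusted p = 0.000931). It read 3148.3 in aged and 3161.8 in young satellite cells, 674.3 and 642.5 in aged and young PDGFRa+ cells, and 354.6 and 367.4 in aged and young CD31+ or CD45+ cells. Called lower in satellite than in PDGFRa+ cells were 4 of the 28: the laminin chains Lama4 (-2.48) and Lamb2 (-1.72), the ubiquitin ligase Pdzrn3 (-1.22), which targets MuSK, and Gfpt1 (-1.20), an enzyme of hexosamine synthesis. Against CD31+ or CD45+ cells 3 were called lower: Lama4 (-1.90), Lama5 (-1.32) and Lamb2 (-1.03). PDGFRa+ cells had 2 called higher than CD31+ or CD45+ cells, Gfpt1 (1.35) and Pdzrn3 (1.32), and 1 lower, Lama5 (-1.95). The arrays of these populations also belong to different scan sets. The list's medians were -0.04, -0.02 and 0.03 in these 3 comparisons, beside 0.01, 0.02 and 0.01 over all genes. Agrin (Agrn), named here for its role and after its values were seen, was 28.5 and 32.2 in aged and young satellite cells. It was 55.5 and 91.7 in aged and young PDGFRa+ cells, and 29.6 and 28.6 in aged and young CD31+ or CD45+ cells. Its highest arrays were thus also those of Lrp4. Its difference, -0.72 for satellite minus PDGFRa+ cells (limma adjusted p = 0.025), was under 2-fold on the offset scale. Of 11 neuronal nicotinic subunits, 9 were on the array and 7 tested, with 0 called in any comparison.

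With age, no member passed. In the age term of the fit (3 aged against 3 young arrays), 0 of 9 members and 0% of all genes were called, 0 members and 2026 genes had an unadjusted p under 0.05, and the median of the members was -0.02, beside -0.01 over all genes. Chrna1 gave -0.16 (limma adjusted p = 0.564, 95% interval -0.39 to 0.07), Rapsn -0.16 (adjusted p = 0.693, -0.51 to 0.20) and Chrng 0.10 (adjusted p = 0.689, -0.12 to 0.31). Within a population 1 aged array faces 1 young array, so these differences have no replicate check. At least 2-fold differences were counted in 0 members in each of the 3 populations, beside 1.23% of all genes in satellite cells, 0.425% in PDGFRa+ cells and 0.58% in CD31+ or CD45+ cells.

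**Figure D3:**
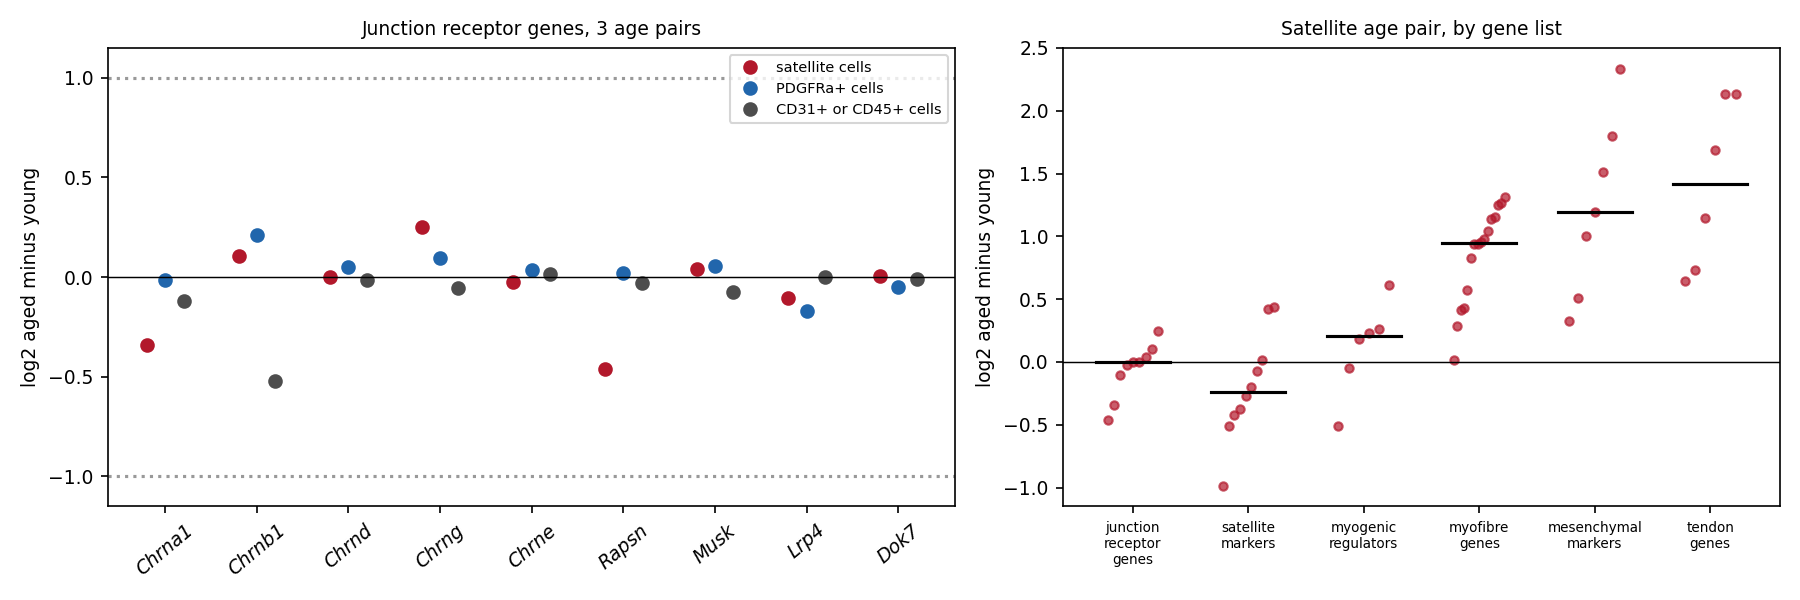
Left, log2 aged minus young of the 9 genes in each population, 1 array against 1, with dotted lines at 2-fold. Right, the same difference in satellite cells for the 9 genes and 5 gene lists, 1 point per gene and a bar at the median: the 9 genes have a median of 0.00, satellite markers -0.24, myogenic regulators 0.21, myofibre genes 0.95, mesenchymal markers 1.19 and tendon genes 1.42.

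In the satellite pair, the 2 genes with the lowest aged minus young values were Rapsn at -0.46 and Chrna1 at -0.34, deposited ratios of 0.648 and 0.721. Rapsn lay at the 2.94th percentile of all genes in that pair and Chrna1 at the 6.11th, where the 5th and 95th percentiles of all genes were -0.37 and 0.43. Chrng was the highest member at 0.25, with a deposited ratio of 1.67, and Chrnb1 (0.11), Musk (0.04), Dok7 (0.00), Chrnd (0.00), Chrne (-0.02) and Lrp4 (-0.11) were nearer to 0. Beside this, 16 of 16 myofibre genes were higher in aged satellite cells (median 0.95), 7 of 7 mesenchymal markers were higher (summed level 4597.9 in aged and 1132.5 in young cells), 6 of 6 tendon genes were higher (median 1.42), and 7 of 10 satellite markers were lower (median -0.24). Their part in the values of Rapsn and Chrna1 was not tested, and because the aged and young satellite arrays belong to different scan sets, age and set cannot be told apart in that pair. With the local background of each spot in place of the blank spots, the Rapsn value turned to 0.36 and the Chrnb1 value to -1.30, beyond 2-fold.

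In CD31+ or CD45+ cells, Chrnb1 was the member furthest from 0, at -0.52 (deposited ratio 0.605, 1.06th percentile of all genes). The satellite markers summed to 1734.8 in aged and 2491.4 in young CD31+ or CD45+ cells. Most of that sum was Cd34, at 785.9 and 1650.7, and Vcam1, which went the other way at 651.6 and 505.5. Of the 10 satellite markers, 7 were lower in the aged cells and 3 higher. The endothelial markers summed to 14824.7 and 19509.5, and the hematopoietic markers to 6777.4 and 6227.9. The part of these lists in the Chrnb1 value was not tested. In PDGFRa+ cells the members ran from -0.17 for Lrp4 to 0.21 for Chrnb1, inside the 5th and 95th percentiles of all genes (-0.29 and 0.31).

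**Figure D4:**
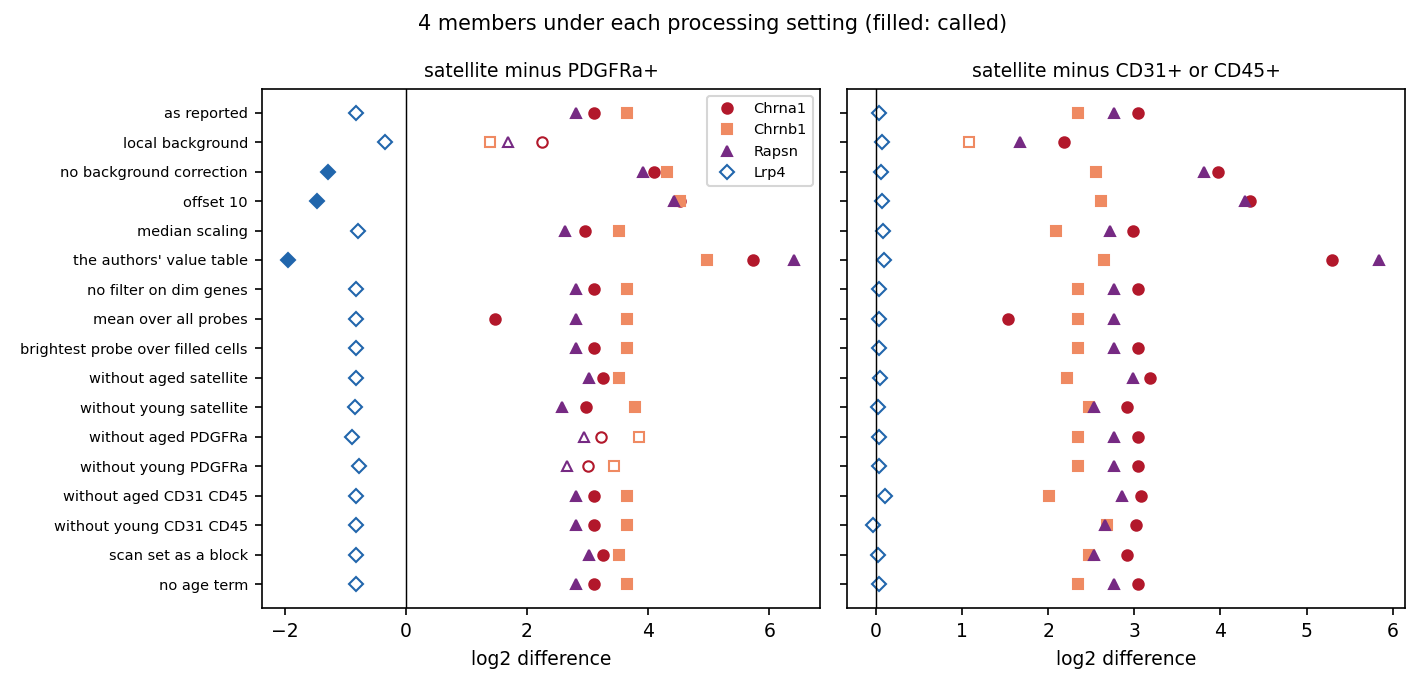
Log2 difference of Chrna1, Chrnb1, Rapsn and Lrp4 under each processing setting, for satellite minus PDGFRa+ cells (left) and satellite minus CD31+ or CD45+ cells (right). Filled points are called. The first 3 genes stay above 1 under all 17 settings, Chrna1 has its lowest value, 1.48 and 1.53, with all probes averaged, and the values from the authors' table are the highest for Chrna1 and Rapsn.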

How the data were processed

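RNA from each sorted population was hybridised to 1 one-colour array per population and age after amplification, per the labels' protocols. The scanner files hold spot median intensity at 635 nm, which per the file headers the authors merged from 3 gains. The deposited value table is linear intensity with an array median of 25. It was rebuilt from the scanner files to within 0.0938, as the spot median less the trimmed mean of the blank spots (5% from each end), with spots under that mean plus 2 trimmed SD left empty. Software, versions and genome build are not given in the sources used here.

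From the deposited spot medians, log2 values were computed with limma's normexp (blank-spot mean as background, offset 50) and quantile normalisation. Genes above background on at least 2 of 6 arrays were tested (18372). limma 3.58.1 in R 4.3.3 fitted population and age (lmFit, eBayes, 2 residual degrees of freedom), two-sided, with Benjamini-Hochberg adjustment over all genes. The fit was also run on simulated data with independent noise and shifts in satellite cells only. Those data held no scan set, age or background effect, so they are no check on these. The array annotation named 20690 probes and left 2783 unnamed. The members, lists, tests and naming rule were chosen with earlier results of these data known. That rule named the 9 genes, the markers Pdgfra, Pax7, Pecam1 and Ptprc, called members of the junction and nicotinic lists, the 3 nearest profiles and the brightest marker genes. Other backgrounds, offsets, scalings, filters, probe rules, a scan set block and leaving out arrays were tried.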

Additional observations from a re-analysis of the deposited data

How the results depend on the processing

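The count of the 9 genes called for satellite against PDGFRa+ cells (3) was 0 with the local background of each spot. None of the 3 genes stayed called when either PDGFRa+ array was left out. Without background correction the count for satellite against PDGFRa+ cells was 4, which adds Lrp4. Lrp4 was also called there at offset 10 and with the authors' value table. For satellite against CD31+ or CD45+ cells (3) the count ranged from 2 with the local background, which loses Chrnb1, to 4 with the authors' value table, which adds Dok7. For PDGFRa+ against CD31+ or CD45+ cells (1) it was 0 with the local background and with the scan set as a block, 2 with the authors' value table, without background correction and at offset 10, and 0 to 1 when single arrays were left out. For age it was 0 under every alternative run. Members at least 2-fold apart in an age pair numbered 1 with the local background in satellite cells (Chrnb1, at -1.30) and 1 with the authors' value table in PDGFRa+ cells (Dok7), against 0 in each as reported. In the value table run, empty values took the lowest value of their array. Dok7 was empty in aged PDGFRa+ cells, so 2.2 in young cells was set against a filled 0.9.

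Over all genes, 1339, 2147 and 1857 genes were called in the 3 comparisons in that order. Calls numbered 68, 342 and 289 with the local background, 2213, 3382 and 2945 at offset 10, and 3149, 4714 and 4003 with the authors' value table. They numbered 0 for satellite against PDGFRa+ cells without either PDGFRa+ array, and 1131 and 835 for PDGFRa+ against CD31+ or CD45+ cells without young PDGFRa+ cells and with the scan set block. Apart from the changes above, 0 called values reversed. Other than the filled Dok7 value, the causes of these changes were not tested. The age term already sets each aged array against the young array of its own population. Beyond that, no paired analysis was possible because each population and age has a single array. Where an array was left out, the lone array of its population is assumed to vary like the others. Leaving out an array gives no value in its own age pair. One alternative, the brightest probe over filled cells, was added after seeing the data. Signal over background limits Chrnd, Chrne and Dok7, and the number of arrays limits every test.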
